A study of Mus musculus with 6 samples.

Results

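The circadian clock genes of hippocampal microglia from progranulin knockout mice are described here, in cells with few and with many lipid droplets. The set was chosen by symbol and holds 10 genes, namely the core loop genes Arntl, Clock, Per1, Per2, Per3 and Cry1, the repressor genes Nr1d1 and Nr1d2, and the output factors Dbp and Tef. All 10 were among the 16179 genes of the deposited table, and all 10 passed the filter on low values that left 12821 genes for testing. The microglia came from male mice aged 10 months of the strain B6.129S4(FVB)-Grntm1.1Far/Mmja, a progranulin knockout. BODIPY, a dye for neutral lipid, parted live CD11b+CD45lo cells into a droplet-low fraction (BODIPY-low) and a droplet-rich fraction (BODIPY-high). Each fraction has 3 libraries, numbered 1 to 3, each from the pooled hippocampi of 2 mice and about 10000 sorted cells. Both fractions carry the knockout, and microglia of wild-type mice were not analysed here. The labels do not say whether the low and the high library of a number share a pool, and the hour at which tissue was taken is not given in the sources used here.

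In mammals, BMAL1 (the product of Arntl) and CLOCK form a dimer that switches on genes carrying an E-box in their DNA. Among these genes are the Per and Cry genes, whose products return to repress the dimer, and Nr1d1 and Nr1d2, whose products REV-ERB alpha and beta repress Arntl. DBP and TEF bind a further element, the D-box, and carry the rhythm to output genes. In a tissue sampled around the day, Arntl runs nearly opposite in phase to Nr1d1, Dbp and the Per genes, and in microglia the clock is known to bear on inflammatory responses.

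The 6 libraries held from 24982215 to 34899425 whole reads assigned to genes. The 5 microglia markers P2ry12, Tmem119, Cx3cr1, Csf1r and Aif1 took 3.72% to 3.99% of reads in BODIPY-low and 3.18% to 3.38% in BODIPY-high libraries, so the labelled cell type was present in all and its marker share was lower in BODIPY-high without overlap. Of these markers Cx3cr1 fell (log2 fold change -0.39, limma adjusted p = 0.0399), and the other 4 did not pass. Aif1 went the other way, with a higher mean in BODIPY-high and overlapping groups (log2 fold change 0.29, limma adjusted p = 0.328). Grn, the targeted gene, had 416, 625 and 990.1 normalised reads in BODIPY-low libraries 1, 2 and 3 and 468, 657 and 1614 in the BODIPY-high libraries. Where along the gene those reads lie was not analysed here, so they do not check the deletion. Grn differed between library numbers, with number 3 above number 1 in both fractions (log2 difference 1.52, limma F adjusted p = 0.0104) and no overlap among the 3 numbers. The fractions also differed in markers of other cells. Markers of choroid plexus epithelium (6 genes, none without reads) took 0.0134% to 0.0644% of reads in BODIPY-low and 0.528% to 0.945% in BODIPY-high libraries. Neutrophil markers (9 genes, none without reads) took 0.113% to 0.290% of reads in BODIPY-low and 0.000722% to 0.00846% in BODIPY-high libraries. Neuron markers took 9.74e-05% to 1.12e-04% in BODIPY-low and 4.73e-04% to 5.18e-04% in BODIPY-high libraries. Astrocyte markers took 0.00138% to 0.0018% and 0.00316% to 0.00346%, and oligodendrocyte markers 0.00677% to 0.00875% and 0.00923% to 0.0129%, in the same order. All 3 of these shares were higher in BODIPY-high without overlap, while endothelial markers overlapped. Gene by gene, limma called 1 of 4 tested neuron markers, 1 of 5 astrocyte markers (Aldh1l1) and 0 of 4 tested oligodendrocyte markers. The share called over all tested genes was 13.3%, higher or lower. Within all 3 numbers, 3, 2 and 4 of these genes were higher in BODIPY-high, in the same order. Of all tested genes, 49.8% kept 1 direction in all 3 numbers, higher or lower. No neuron marker had more than 63 reads in a library. In such pools, fewer cells of a type and less RNA per cell cannot be told apart.

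Promoters of 4 clock genes are shown because each holds a different element of the loop, and that of Bhlhe41, a clock repressor, because the gene passed its test. They are RefSeq windows on GRCm38.p6, from 250 bases before the start site to 50 bases from it onward, written 5′ to 3′ on the gene's strand. Capitals mark an E-box (CACGTG), an E-box variant (CACGTT, or AACGTG when read on the other strand), a D-box (TTATGTAA) or an element bound by REV-ERB proteins (TAGGTCA).
Arntl, chr7:113207261-113207560, plus strand: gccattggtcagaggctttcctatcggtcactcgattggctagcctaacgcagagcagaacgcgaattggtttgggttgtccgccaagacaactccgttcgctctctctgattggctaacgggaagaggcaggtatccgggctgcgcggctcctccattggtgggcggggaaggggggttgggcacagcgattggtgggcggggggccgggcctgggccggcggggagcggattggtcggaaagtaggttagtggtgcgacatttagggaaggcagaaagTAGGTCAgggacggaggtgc
Per1, chr11:69098699-69098998, plus strand: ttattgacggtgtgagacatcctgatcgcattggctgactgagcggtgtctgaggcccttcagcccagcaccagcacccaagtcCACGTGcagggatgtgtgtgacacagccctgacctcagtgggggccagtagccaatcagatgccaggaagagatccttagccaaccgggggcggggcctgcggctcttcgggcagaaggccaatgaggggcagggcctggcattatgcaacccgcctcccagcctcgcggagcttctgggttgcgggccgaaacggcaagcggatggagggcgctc
Per3, chr4:151044616-151044915, minus strand: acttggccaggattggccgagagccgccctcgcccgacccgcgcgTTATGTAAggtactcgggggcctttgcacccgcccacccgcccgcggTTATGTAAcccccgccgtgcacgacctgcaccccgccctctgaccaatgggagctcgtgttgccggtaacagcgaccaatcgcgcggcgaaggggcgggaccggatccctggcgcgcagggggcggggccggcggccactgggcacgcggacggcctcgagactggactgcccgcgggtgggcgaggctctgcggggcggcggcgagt
Nr1d1, chr11:98775328-98775627, minus strand: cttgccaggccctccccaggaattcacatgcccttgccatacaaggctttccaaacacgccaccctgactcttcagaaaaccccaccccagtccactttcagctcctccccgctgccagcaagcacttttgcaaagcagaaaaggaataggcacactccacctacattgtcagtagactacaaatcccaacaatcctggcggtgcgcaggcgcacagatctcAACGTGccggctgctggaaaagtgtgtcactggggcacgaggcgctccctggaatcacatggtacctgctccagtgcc
Bhlhe41, chr6:145865371-145865670, minus strand: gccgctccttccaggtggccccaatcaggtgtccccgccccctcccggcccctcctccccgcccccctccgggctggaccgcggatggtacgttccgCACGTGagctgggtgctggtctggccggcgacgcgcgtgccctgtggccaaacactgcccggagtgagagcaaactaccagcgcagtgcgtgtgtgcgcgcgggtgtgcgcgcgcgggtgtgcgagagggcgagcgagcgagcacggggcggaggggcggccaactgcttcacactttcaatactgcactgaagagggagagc
The element in Arntl begins at position 31, counting the start site as 1, and the D-boxes of Per3 begin at -205 and -158. The E-box lies at -166 in Per1 and at -153 in Bhlhe41, and the variant in Nr1d1 lies at -28. RefSeq windows were found for 9 of the 10 genes, 14 windows in all, and Per2 is named only. With both strands searched, CACGTG stood in 4 of the 14 windows (Per1, Cry1 and both of Tef) against 7.15% of all 32851 windows of this length. CACGTT stood in 2 (Cry1 and Nr1d1) against 4.68%, TTATGTAA in 1 against 0.938%, and TAGGTCA in 1 against 2.61%. The cyclic AMP element TGACGTCA stood in 0 of the 14 windows and in 1.79% of all windows. A match describes letters in the window and not binding.

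Clock genes stood at quite different levels in these cells, and the order was led by Nr1d2 and Tef. Levels are compared here as normalised reads per kb of merged exons, where all annotated exons of a gene count. Nr1d2 had a mean of 561 per kb over the 6 libraries (513.7 to 606), and Tef followed with 391 (340.4 to 444). The ranges of these genes did not overlap each other or those of the other members. Cry1 had 153 (114 to 199.7) and Nr1d1 143 (88.4 to 189.9), with overlapping ranges. Clock had 76.1 (59.4 to 101), Arntl 67.6 (56.5 to 80.7) and Dbp 52.3 (42.2 to 60.9), and each overlapped its neighbour. The Per genes stood lowest, Per3 at 39.7 (25.5 to 57.2), Per1 at 31.3 (21.4 to 41.2) and Per2 at 23.7 (17.2 to 34.2), again with overlaps between neighbours. From Cry1 down, the ranges of neighbours in the order overlapped over the 6 libraries. Within a library, Nr1d1 stood above Clock in 6 of 6, while Cry1 stood above Nr1d1 in 4 of 6 and Clock above Arntl in 4 of 6. From Arntl down to Per2, the higher of each pair of neighbours led in 5 of 6 libraries.

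**Figure D1:**
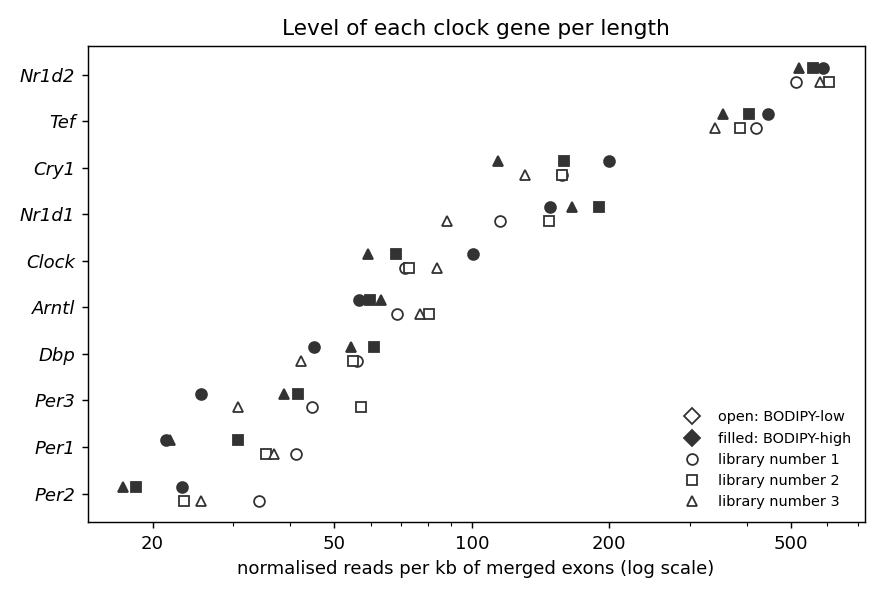
Normalised reads per kb of merged exons (log axis) for each clock gene, 1 point per library, open for BODIPY-low and filled for BODIPY-high, with the marker shape giving the library number. Nr1d2 and Tef lie apart above the rest, with means of 561 and 391, and Per2 is lowest at 23.7.

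No clock gene passed the test between BODIPY-low and BODIPY-high microglia. The test was limma on log2(value + 1), two-sided, with Benjamini-Hochberg adjustment over all tested genes and a call at an adjusted p below 0.05, by which 13.3% of the 12821 genes were called (9.79% higher and 3.52% lower in BODIPY-high). That count of 1706 fell to 881 without BODIPY-high library 3, to 1054 without BODIPY-low library 2 and to 1042 without BODIPY-low library 3. At an unadjusted p under 0.05, limma, edgeR and DESeq2 each had 3 of the 10 clock genes, beside 27.1% of all tested genes with limma. The adjusted p-values of the members from limma ran from 0.106 to 0.929. The groups did not overlap for 4 members, 1 higher and 3 lower in BODIPY-high, beside 31.3% of all tested genes (18.0% higher and 13.4% lower). The clock genes had a median log2 fold change of -0.03, beside -0.01 over all tested genes. The clock genes thus stood within 1 or 2 genes of the background share on each of these counts. Marker shares of choroid plexus, neurons, astrocytes and oligodendrocytes were higher and those of neutrophils and microglia lower in the same BODIPY-high libraries, as given above. Their part in the values below was not tested.

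Of the activators, Arntl had lower values in BODIPY-high libraries without a call, and Clock had equal means. Arntl (chromosome 7, 113207465 to 113314126 on GRCm38) had normalised read counts of 515, 607 and 578 in BODIPY-low libraries 1, 2 and 3 and 425, 451 and 476 in the BODIPY-high libraries. All BODIPY-high values lay below all BODIPY-low values. Its log2 fold change was -0.33 (SE 0.15, 95% interval -0.65 to -0.01, limma adjusted p = 0.174), so it did not pass over all genes. Clock, the partner of BMAL1 (chromosome 5, 76209868 to 76304792), had 982, 1002 and 1151 in BODIPY-low and 1381, 937 and 815 in BODIPY-high libraries. The BODIPY-high values of Clock lay on either side of the BODIPY-low ones. The means were 1045 ± 92.2 and 1044 ± 298 (SD, n = 3 each), and the interval of the log2 change ran from -0.43 to 0.36 (limma adjusted p = 0.929).

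The Per genes all had lower means in BODIPY-high libraries, without a call. Per1, the period gene that also answers quickly to cyclic AMP and glucocorticoids (chromosome 11, 69095217 to 69109960), had 232, 199 and 208 in BODIPY-low and 121, 173 and 123 in BODIPY-high libraries. The groups did not overlap, and BODIPY-high library 2 lay nearest to the BODIPY-low values. The log2 fold change of Per1 was -0.63 (SE 0.23, interval -1.14 to -0.12, limma adjusted p = 0.106), the smallest adjusted p in the set. Per2, a core repressor (chromosome 1, 91415982 to 91459324), had 200.1, 137 and 149 in BODIPY-low and 136, 108 and 101 in BODIPY-high libraries. Its groups were parted by the gap between 137 and 136, which is less than the counting error of 10.3% at its lowest read count of 95. The interval of its log2 change ran from -1.06 to 0.08 around -0.49 (SE 0.26, limma adjusted p = 0.259). Per3, whose loss leaves rhythms largely intact in mice (chromosome 4, 151003652 to 151044665), had 429, 549.8 and 295 in BODIPY-low and 245, 399.8 and 372 in BODIPY-high libraries. Its groups overlapped widely (log2 fold change -0.31, interval -0.88 to 0.25, limma adjusted p = 0.488). The change of Per3 was -0.093 without BODIPY-high library 1, -0.10 without BODIPY-low library 2 and -0.55 without BODIPY-low library 3. Cry1, the cryptochrome that represses the dimer (chromosome 10, 85131700 to 85185064), had 527, 527 and 437 in BODIPY-low and 667, 532 and 381 in BODIPY-high libraries. The BODIPY-high libraries held both its highest and its lowest value (log2 fold change 0.05, interval -0.40 to 0.50, limma adjusted p = 0.907).

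**Figure D2:**
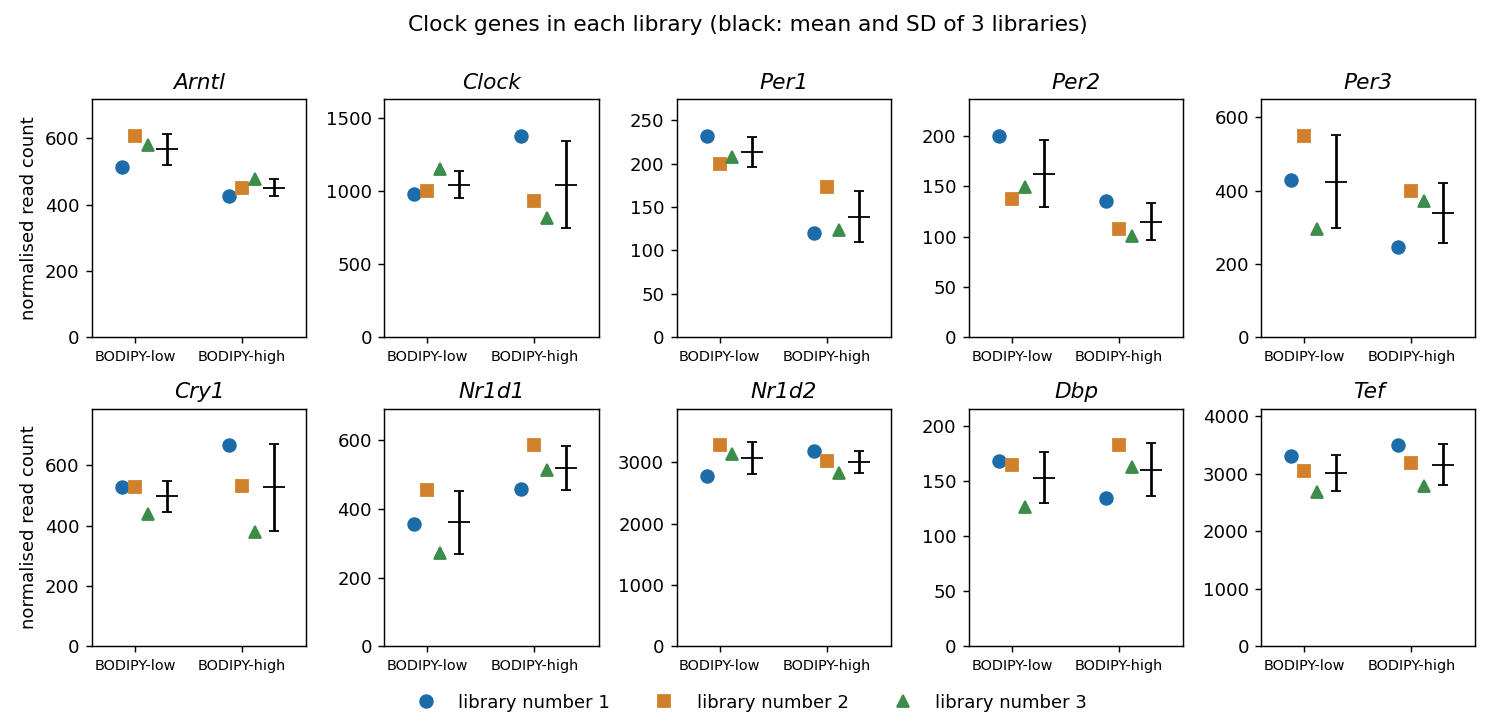
Normalised read count of each clock gene (vertical axis from 0) in the 6 libraries by fraction, with colour and shape for the library number and mean and SD of 3 libraries in black. Arntl, Per1 and Per2 lie lower and Nr1d1 higher in BODIPY-high without overlap, while the other 6 genes overlap.

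Of the REV-ERB genes, Nr1d1 had higher values in BODIPY-high libraries and Nr1d2 did not. Nr1d1 (chromosome 11, 98767932 to 98775333) had 354, 454 and 272 in BODIPY-low and 456, 584 and 511 in BODIPY-high libraries. The groups were parted by the gap between 454 and 456, again less than the counting error of 5.84% at its lowest read count of 293. The log2 fold change of Nr1d1 was 0.54 (SE 0.20, interval 0.10 to 0.99, limma adjusted p = 0.109), and it was 0.36 without BODIPY-low library 3. Exons of Nr1d1 share 263 bases with Thra, a thyroid hormone receptor gene on the other strand, and without strand the reads of that stretch cannot be told apart. Thra itself had 80.0, 84.2 and 85.4 in BODIPY-low and 105, 198 and 123 in BODIPY-high libraries (log2 fold change 0.71, limma adjusted p = 0.155). Per kb of merged exons, Thra had a mean of 24.4 normalised reads, beside 143 for Nr1d1. The part of Thra in the values of Nr1d1 was not tested. Nr1d2 (chromosome 14, 18204054 to 18239127) had 2779, 3277 and 3131 in BODIPY-low and 3176, 3017 and 2817 in BODIPY-high libraries. It had the narrowest interval of the set, from -0.24 to 0.19 on the log2 scale around -0.03 (limma adjusted p = 0.901), which leaves room for a fold between 0.845 and 1.14.

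The output factors overlapped between the fractions. Dbp (chromosome 7, 45705088 to 45710203) had 168, 164 and 126 in BODIPY-low and 135, 182 and 163 in BODIPY-high libraries, which overlapped (log2 fold change 0.07, interval -0.46 to 0.60, limma adjusted p = 0.896). Its exons share 539 bases with Sphk2 on the other strand. Tef (chromosome 15, 81802421 to 81826863) had 3295, 3039 and 2678 in BODIPY-low and 3494, 3176 and 2784 in BODIPY-high libraries. Here too the groups overlapped (log2 fold change 0.07, interval -0.18 to 0.32, limma adjusted p = 0.757). For Dbp and Nr1d1, both known targets of the BMAL1 and CLOCK dimer, the intervals of the log2 fold change overlapped, and their difference was not tested.

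Arntl and Nr1d1, which run in opposite phase in a rhythmic tissue, were also set against each other within each library. This pair was chosen after its values were seen, so it carries no test. On the log2 scale of reads per kb, Arntl minus Nr1d1 was -0.75, -0.87 and -0.20 in BODIPY-low libraries 1, 2 and 3 and -1.39, -1.66 and -1.39 in the BODIPY-high libraries. Arntl lay below Nr1d1 in every library, and by more in each BODIPY-high library. Per3 minus Nr1d1 was -1.37, -1.37 and -1.52 in BODIPY-low and -2.54, -2.19 and -2.10 in BODIPY-high libraries, also without overlap. The same held for Nr1d2 minus Nr1d1, at 2.16, 2.04 and 2.71 in BODIPY-low and 1.99, 1.55 and 1.65 in BODIPY-high libraries, although Nr1d2 itself overlapped between the fractions. Arntl minus Clock did overlap, at -0.07, 0.15 and -0.13 in BODIPY-low and -0.83, -0.19 and 0.09 in BODIPY-high libraries. The separated differences share Nr1d1, so they are not separate patterns. Nr1d1 was in every pair chosen except Arntl minus Clock, so this sharing follows from the choice. Differences of other pairs without Nr1d1 were not examined.

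Among 18 further clock genes, 17 were in the table and 16 were tested. With limma 1 of the 16 fell and 0 rose in BODIPY-high libraries, beside 13.3% of all tested genes called. At an unadjusted p under 0.05 limma had 3 of the 16, beside 27.1% of all tested genes. With edgeR 1 was called and with DESeq2 2. The count of calls was 2 without BODIPY-high library 1 and 0 without BODIPY-high library 2, BODIPY-high library 3 or BODIPY-low library 3. Their median log2 fold change was -0.02. Bhlhe41, which encodes the repressor DEC2, competes for E-boxes, and is known as a gene of microglia and other macrophages, had normalised read counts of 2309, 2602 and 2454 in BODIPY-low and 2035, 1629 and 1755 in BODIPY-high libraries. Every BODIPY-high value lay below every BODIPY-low value, and Bhlhe41 fell by 0.45 on the log2 scale (SE 0.11, limma adjusted p = 0.0216). The call was lost without BODIPY-low library 2 or 3 or BODIPY-high library 2 or 3 (adjusted p 0.0995, 0.0823, 0.0636 and 0.0828). Of the 6720 exon bases of Bhlhe41, 1280 are shared with Gm43909 on the other strand, so without strand the source of those reads cannot be told apart. Gm43909 is absent from the deposited table, so its level is not known here. The share of microglia markers was lower in the same libraries, and its part in the values of Bhlhe41 was not tested. Npas2, a paralogue of Clock, had 3.43, 18.1 and 0 in BODIPY-low and 36.7, 15.9 and 98.5 in BODIPY-high libraries, which overlapped (limma adjusted p = 0.0736, DESeq2 adjusted p = 0.0441, edgeR adjusted p = 0.117). Without BODIPY-low library 2 it passed with limma (adjusted p = 0.0284). Cry2, the second cryptochrome, had 428, 371 and 401 in BODIPY-low and 406, 582 and 615 in BODIPY-high libraries (log2 fold change 0.40, limma adjusted p = 0.194). Bhlhe40, the paralogue that encodes DEC1, had 157, 127 and 212 in BODIPY-low and 272, 194 and 295 in BODIPY-high libraries, which overlapped (log2 fold change 0.62, limma adjusted p = 0.147). Within numbers 1, 2 and 3 its log2 difference was 0.79, 0.61 and 0.47, opposite in direction to Bhlhe41. The other 12 tested genes did not pass either. They include Rora and Ciart, the D-box factor genes Nfil3 and Hlf, and the kinase genes Csnk1d, Csnk1e and Gsk3b. Of 7 clock-controlled genes such as Wee1, Nampt and Por, 6 were tested and 0 passed with limma (0 at an unadjusted p under 0.05).

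**Figure D3:**
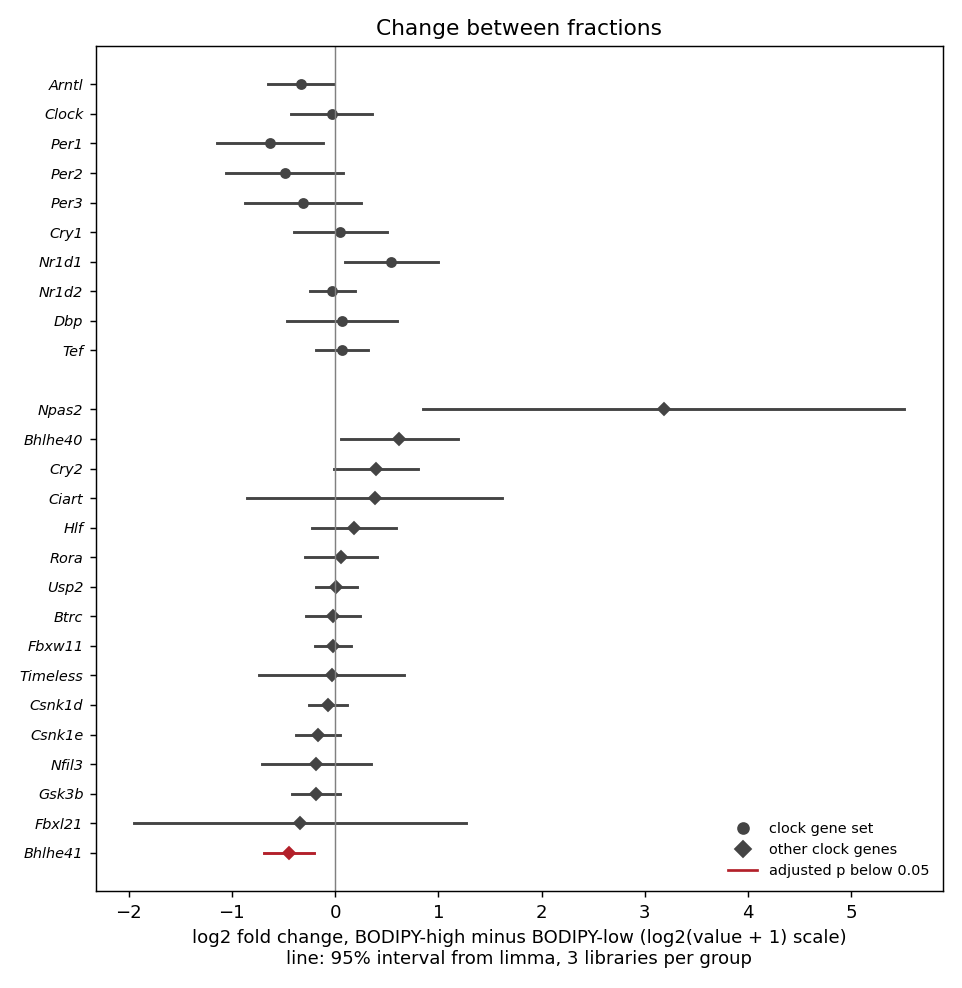
Log2 fold change, BODIPY-high minus BODIPY-low, on the log2(value + 1) scale for the 10 clock genes (circles) and 16 further clock genes (diamonds), with the 95% interval from limma as a line and red for an adjusted p below 0.05. Bhlhe41 at -0.45 is the red gene, and all 10 circles are grey.

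Glucocorticoids and immediate early signals set clocks in many tissues, so their response genes are given beside the members. Of 7 glucocorticoid-responsive genes tested, 1 rose and 1 fell in BODIPY-high libraries, with a median log2 fold change of -0.27. Over all tested genes, 9.79% rose and 3.52% fell. Klf9, a transcription factor gene that follows both the clock and glucocorticoids, rose from 43.5, 29.8 and 31.5 to 199.7, 139 and 218 (log2 fold change 2.37, SE 0.32, limma adjusted p = 7.80e-04). Sgk1, a kinase gene, fell from 32675, 41937 and 36000.1 to 24551, 26270.2 and 27102 (log2 fold change -0.50, SE 0.10, limma adjusted p = 0.00719). Fkbp5 and Tsc22d3, textbook targets of the glucocorticoid receptor, did not pass (limma adjusted p = 0.839 and 0.561), although Tsc22d3 was lower in BODIPY-high within each number (log2 difference -0.23, -0.39 and -0.25). With the library number as a block, Tsc22d3 passed (limma adjusted p = 0.0250) and Fkbp5 did not (limma adjusted p = 0.682). Choroid plexus markers were higher in the same libraries as Klf9, and their part in its values was not tested. Of 9 immediate early genes, with a median log2 fold change of -0.48, Jun fell (log2 fold change -0.53, limma adjusted p = 0.0321). That 1 call stands beside 13.3% of all tested genes called. It was lost without BODIPY-low library 2 or 3 or BODIPY-high library 1 (limma adjusted p 0.117, 0.113 and 0.0790). With the library number as a block, Fos, Jun, Junb, Egr1, Ier2 and Dusp1 were called, 6 of the 9 (limma adjusted p from 1.60e-04 to 0.00441). That fit called 2211 of the 12821 tested genes. Of all 9 immediate early genes, 8 were lower in BODIPY-high within each of the 3 numbers, Nr4a1 being the exception. Over all tested genes, 49.8% had the same direction in all 3 numbers, higher or lower, and the share that was lower was not counted apart. Per1, which shares inducers with both lists, had a change of -0.63 without a call, as given above.

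No clock gene passed the test between library numbers either. The moderated F test of limma, with the fraction kept as a term, compared the 2 libraries of each number and called 0.328% of the 12821 genes, 42 in all. That count was 492, 606, 430 and 522 without BODIPY-low library 1, BODIPY-low library 2, BODIPY-high library 1 and BODIPY-high library 2, and 25 without BODIPY-high library 3. Of the members, 1 of 10 had an unadjusted F p under 0.05 with limma, beside 9.80% of all genes, and 1 with edgeR and 1 with DESeq2. Adjusted p-values from limma ran from 0.464 to 0.941. With 2 libraries per number, an interaction of number and fraction could not be fitted.

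Tef had the smallest F p of the set, and its 3 numbers did not overlap, as in 5.23% of all tested genes. The values were 3295 and 3494 for number 1, 3039 and 3176 for number 2, and 2678 and 2784 for number 3, with BODIPY-low first. Number 3 lay below number 1 in both fractions (log2 difference -0.31, F test of limma, adjusted p = 0.464). Cry1 was likewise lowest in number 3, at 437 and 381, against 527 and 667 in number 1 (log2 difference -0.54, limma F adjusted p = 0.518). Nr1d1 and Per3 were highest in number 2 within the BODIPY-low and within the BODIPY-high libraries. The log2 differences of number 3 from number 2 were -0.47 for Nr1d1 and -0.50 for Per3 (limma F adjusted p = 0.629 and 0.637). The value for Nr1d1 was -0.74 without BODIPY-high library 3 and -0.19 without BODIPY-low library 3, and that of Cry1 was -0.32 without BODIPY-high library 1 and -0.35 without BODIPY-high library 3. Arntl differed between numbers by at most 0.17 on the log2 scale (limma F adjusted p = 0.884). The difference between fractions had the same direction in all 3 numbers for 5 members, lower for Arntl, Per1 and Per2 and higher for Nr1d1 and Tef, beside 49.8% of all tested genes. For Nr1d1 the log2 difference was 0.36, 0.36 and 0.91 in numbers 1, 2 and 3, and for Clock it was 0.49, -0.10 and -0.50.

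Genes of acute response did differ between the same library numbers. Their lists were chosen with earlier results of these data known, so the counts below are no independent contrast with the clock genes. Of all tested genes, 0.328% were called by the same test. Of 9 immediate early genes 4 were called by the F test, namely Fos, Fosb, Egr1 and Dusp1, and of 8 heat shock chaperone genes 5 were called, namely Hspa1a, Hspa1b, Hsph1, Dnajb1 and Hspa8. Hspa1a, an inducible HSP70 gene, had 2439 and 2147 normalised reads in number 1, BODIPY-low first, against 284.5 and 263 in number 2 and 193 and 284 in number 3 (limma F adjusted p = 3.71e-05). Hspa1a and Hspa1b are near-identical copies, so the split of reads between them is uncertain. Fos went the other way, with 7624 and 6518 in number 1, 17311 and 12179 in number 2, and 19369 and 14235 in number 3 (limma F adjusted p = 1.10e-04). Tsc22d3, the glucocorticoid target GILZ, was the called gene of its list, with 10189 and 8709 in number 1 and values from 4360 to 5935 in the others (limma F adjusted p = 8.73e-04). Fosb lost its call without BODIPY-low library 3 or BODIPY-high library 3 (adjusted p 0.0748 and 0.0563) and with edgeR (0.0563), and Hspa8 lost its call without the same libraries (0.222 and 0.186). Per1, whose promoter answers to several of the same signals, had 232 and 121 in number 1, 199 and 173 in number 2, and 208 and 123 in number 3. It followed neither pattern, and its F test gave an adjusted p of 0.941 with limma.

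**Figure D4:**
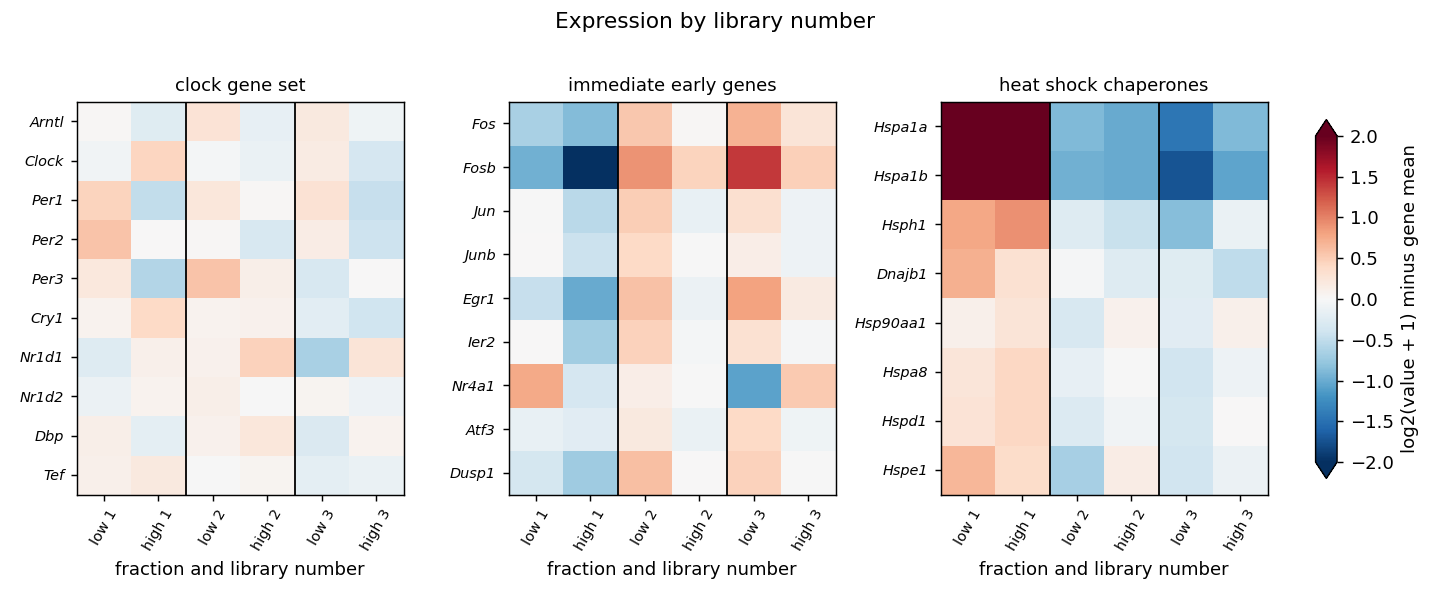
Log2(value + 1) minus the gene's mean (colour, saturated beyond 2) in the 6 libraries ordered by number, with low and high for the fraction, for clock genes, immediate early genes and heat shock chaperones. Library number 1 stands out in Hspa1a, Hspa1b and Fos, whose lists were chosen with earlier results of these data known. By the F test of limma between numbers, 0 of the 10 clock genes passed, beside 0.328% of all tested genes.

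The genes most alike to Arntl and Nr1d1 over the 6 libraries were found by the root mean square difference of the mean-centred log2(value + 1) values, among 9585 genes with a mean of at least 100. For Arntl these were Zfp799, Lmbr1l, Tbc1d8, Mcl1 and Cnnm3, at 0.0361 to 0.0434 beside a median of 0.252 over all genes compared. For Nr1d1 they were Nynrin, Smim1, Ppfibp2, Cul7 and Nfs1, at 0.0894 to 0.149 beside a median of 0.414. Of the other members, Nr1d2 came nearest to Arntl, at place 2130, and Dbp nearest to Nr1d1, at place 562. Nr1d1 stood at place 8787 in the list for Arntl. No other clock gene was thus among the closest patterns of either gene.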

How the data were processed

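RNA from sorted microglia was turned into cDNA with the SmartSeq v4 kit and into libraries with Nextera XT, per the labels' protocols. FastQC 0.11.4, STAR 2.5.3a and DESeq2 are named in the submitters' processing notes, which list mm9 beside mm10; the design text names mm10, and reads per gene were counted by STAR, per the labels. The annotation and the strand counted are not stated in the labels or the design text. The table the authors deposited holds a scaled signal: gene counts over a size factor of each library, as judged from the steps between values. Multiplying by it gave whole reads (100% of values within 0.01 read of a whole number), 24982215 to 34899425 in total. Values were tested as log2(value + 1) with limma 3.58.1 in R 4.3.3 (trended variance) over genes with a mean of at least 10. As alternatives, the whole reads were tested with edgeR 4.0.16 (1642 genes called by fraction, 28 by library number) and DESeq2 1.42.0 (2132 and 205, with no adjusted p for 5 and 1989 genes). Named are the members, genes of the fixed lists (all called ones and some others), and the 5 genes most alike to Arntl and to Nr1d1; Thra and Sphk2 are named for overlapping exons. Scripts were tested on simulated data. Some genes of the lists are not reported here and are left out of the list counts and marker shares. The members and lists were chosen with earlier results of these data known. Coordinates and exon lengths come from GENCODE M21 (GRCm38, the assembly of mm10), which matched all 10 symbols. Counting errors treat each read as a molecule, which amplified cDNA does not warrant, and so are lower limits. The labels do not say that all 6 libraries come from different mice, so p-values measure the spread between these libraries.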

Additional observations from a re-analysis of the deposited data

How the results depend on the processing

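The count of clock genes called was 0 by fraction and 0 by library number under every alternative run: pseudocounts of 0.5 and 5, no filter on low values, robust variance, TMM scaling, scaling to the sum of values, edgeR, DESeq2, each library left out and, for the fraction, the replicate block. Without 1 library each, calls by fraction ran from 0 to 2 among the further clock genes and from 881 to 1662 among all genes, and calls by library number ran from 25 to 606 among all genes. The count of further clock genes called by fraction was 2 with DESeq2 instead of 1. The count by library number was 205 with DESeq2 and 3 with no term for the fraction, which leaves the difference between fractions in the residual. The direction of small changes turned without 1 library. The log2 change by fraction ran from -0.25 to 0.13 for Clock, -0.14 to 0.27 for Cry1, -0.0944 to 0.0245 for Nr1d2, -0.0645 to 0.18 for Dbp and -0.0122 to 0.15 for Tef. The log2 difference ran from -0.66 to 0.13 for Clock (number 3 minus 1), -0.54 to 0.11 for Per1 (3 minus 2) and -0.18 to 0.0123 for Nr1d2 (3 minus 2), and the cause was not tested. Leaving out 1 library leaves 1 library in its number, which is then assumed to vary like the others. Arntl, Per1, Per2, Per3 and Nr1d1 kept their direction by fraction in all of these fits, though not their size: without 1 library, Per3 ran from -0.55 to -0.093 and Nr1d1 from 0.36 to 0.73. TMM scaling and scaling to the sum moved the median of all genes by -0.01 on the log2 scale. Same-numbered libraries deviated together with correlations of 0.110, 0.144 and 0.0728 across genes, and each library correlated best with its own number. The labels do not say that a number marks a shared pool, so the main test by fraction has no block. The replicate block, which keeps the library number as a term, was run as an alternative. With the replicate block, 2211 genes were called by fraction instead of 1706, and the count of further clock genes was 1 with and without it. The block called 6 of 9 immediate early genes instead of 1 and 3 of 7 glucocorticoid-responsive genes instead of 2. It called 3 of 8 heat shock chaperones instead of 0, 3 of 5 microglia markers instead of 1 and 3 of 4 oligodendrocyte markers instead of 0. Counts of the other marker lists did not change. Nr1d1 had an adjusted p of 0.0550 with the block (limma). Depth limits Per2, Per1 and Dbp most, with counting errors of 10.3%, 8.84% and 8.57% at their lowest read counts.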
